A study of Mus musculus with 4 samples.

Results

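Major histocompatibility complex (MHC) class I genes and the genes that load their peptides were followed through mouse mammary organoids by droplet single-cell RNA sequencing. The set held 10 genes, taken by name from the 32285 genes of the count tables, and all 10 were found. They were 5 class I heavy chains (H2-K1, H2-D1, H2-Q4, H2-Q7 and H2-T23), the light chain B2m, the peptide transporter subunits Tap1 and Tap2, the transporter-associated chaperone Tapbp and the transcriptional activator Nlrc5.

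Class I molecules display short peptides from inside the cell on its surface, where cytotoxic T cells and natural killer cells read them. A heavy chain folds with B2m in the endoplasmic reticulum, receives a peptide that the transporter TAP has carried in from the cytosol, and leaves for the surface once tapasin has helped a well-fitting peptide to bind. Epithelial cells, those of the mammary gland included, make these molecules constitutively, and interferons raise their transcription through interferon regulatory factors and NLRC5.

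The organoids were three-dimensional cultures grown in Matrigel from single mammary epithelial cells of virgin mice. The mice were either wild type or Brca2mut/WT, which carries a truncating germline mutation in 1 copy of Brca2, and the study used this design to ask how replication stress acts on cells with a single intact copy. For each genotype, 1 library came from untreated cultures and 1 from cultures given hydroxyurea (HU), a drug that stalls DNA replication, in pulses that were each followed by recovery. Organoids of all 4 libraries had been cryopreserved, thawed and cultured again before dissociation. The methods name aged mice as the source of the organoids used in the prolonged HU experiments. Early and late passages were sequenced, but the labels give no passage for a library, and the strain background was not stated. The effect of the strain on the counts of the H2 genes, which are polymorphic, was not tested. The labels gave 2 replicates per library, a number that differed from the mice per condition in the methods, so each condition was 1 library and no test between conditions was made.

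The 4 libraries held 1062504699 gene UMIs (unique molecular identifiers, each counting 1 captured transcript) in 33268 cells, 243430259 to 302135155 UMIs per library. A filter of 1000 to 6000 detected genes and under 5% mitochondrial UMIs kept 17360 cells, with a median of 24180 to 26893 UMIs. The methods state more retained cells than the tables held before any filter. Of the 33139 distinct cell barcodes, 129 occurred in more than 1 library, 40 of them among the kept cells. Kept cells were gated on genes outside the set. Cells with at least 500 CPM (UMIs of a gene scaled to a common total of gene UMIs) of Krt14 were called basal (2217 cells), cells with at least 300 CPM of Areg hormone receptor-positive (HR+) luminal (569 cells), and cells under 300 CPM of both HR- luminal (14008 cells). Another 109 cells passed both gates, 457 passed none, and both were left out. The gates held their own markers in every library, with 18297 to 21471 CPM of the milk protein gene Csn3 in HR- luminal, 1822 to 2861 CPM of Krt5 in basal and 927 to 1310 CPM of the prolactin receptor gene Prlr in HR+ luminal cells. Each luminal class had 7 of its 7 markers at 10 CPM or more in every library. Basal cells had 5 of 7 in the wild-type control and 7 of 7 in the other libraries. The basal marker Acta2 stood at 327 CPM in the wild-type control and 629 to 916 CPM in the others. Of the HR- luminal cells, 487 (3.48%) also carried 500 CPM or more of other basal markers.

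Leukocytes carry abundant class I transcripts, so their markers were read first. The leukocyte gene Ptprc had 0 UMIs in each class of each library, and the 7 immune markers together reached 0 to 2.13 CPM. In the HR+ gate, 1 of the 4 fibroblast markers, Dcn, was at 702 to 1661 CPM, whereas it stood at 1.18 to 9.09 CPM in the other classes. Its part in the HR+ values was not tested.

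Promoter sequences were read for the members because interferon regulatory factors and the NLRC5 complex act on class I genes through short elements just upstream of the start. RefSeq promoters (GRCm38.p6) were held for 8 of the 10 members, and those of Tap2 and Nlrc5 were not held. In the 150 bases before the start, 3 motifs were searched on both strands: AANTGAAA, TGACG and CCAAT. AANTGAAA is a form of the core of the interferon-stimulated response element, and other forms were not searched. TGACG is the core of the X2 box and CCAAT that of the Y box. AANTGAAA stood in 3.02% of 27020 promoters of the same length and in H2-K1, H2-D1, H2-Q7 and B2m. TGACG stood in 13.5% of all promoters and in 6 of the 8 members, those 4 together with H2-Q4 and Tap1. CCAAT stood in 25.3% of all promoters and in 6 of the 8 members, the same 4 together with H2-Q4 and H2-T23. All 3 motifs were found in 26 promoters (0.0962%), 4 of them the members H2-K1, H2-D1, H2-Q7 and B2m. H2-K1, H2-D1 and H2-Q7 matched AANTGAAA with the same letters, so these 3 are not independent cases. B2m matched it with other letters, and enrichment was not tested. The 3 stretches shown, each of 145 bases from 150 to 6 bases before the start, belong to the 2 heavy chains with the larger differences between luminal and basal cells and to the light chain, and capitals mark the motifs on either strand.
H2-K1, chr17:34000353-34000497 (minus strand): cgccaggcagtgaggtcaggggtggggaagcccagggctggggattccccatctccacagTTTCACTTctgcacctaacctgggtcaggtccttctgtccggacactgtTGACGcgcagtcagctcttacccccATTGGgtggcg
H2-Q7, chr17:35439005-35439149 (plus strand): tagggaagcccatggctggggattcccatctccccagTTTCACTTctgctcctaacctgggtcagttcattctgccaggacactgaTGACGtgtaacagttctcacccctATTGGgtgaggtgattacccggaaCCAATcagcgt
B2m, chr2:122147537-122147681 (plus strand): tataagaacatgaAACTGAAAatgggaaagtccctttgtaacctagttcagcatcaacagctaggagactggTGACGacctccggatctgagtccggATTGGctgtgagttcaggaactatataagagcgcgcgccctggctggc
The 3 elements followed each other in the same order. From the first base of the response element to that of the X2 core lay 49 bases in H2-K1, H2-D1 and H2-Q7 and 59 in B2m, and from there to the first Y core 24 bases in H2-Q7 and 25 in the other three. A match is a description of the letters and not a measured site.

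The members were first compared between the 3 epithelial classes, which every library holds. Values are CPM of the UMIs summed over the cells of a class, so more cells with a transcript and more transcripts per cell cannot be told apart in them. The heavy chains and B2m stood far higher in HR- luminal than in basal cells in each library. For the test, counts per class and library were fitted over all genes with edgeR's quasi-likelihood test with the library as a block, and a gene was called at a Benjamini-Hochberg adjusted p below 0.05 and a difference of at least 25%, meaning that the higher level exceeded the lower by that much. Of the 10 members, 9 were called lower in basal than in HR- luminal cells and 0 higher. Over all 13885 genes tested, 27.7% were called lower and 28% higher, and the median log2 difference was -1.25 over the members against -0.002 over all genes.

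H2-K1 (ENSMUSG00000061232, chromosome 17, 33996017 to 34000347 of GRCm38) encodes a classical heavy chain that presents peptides to cytotoxic T cells. Its HR- luminal level was 2066 CPM in untreated and 2086 CPM in HU-treated wild-type organoids, and 2602 CPM in untreated and 2523 CPM in HU-treated Brca2mut/WT organoids, the order of libraries used for all lists of 4 values. The basal cells of the same libraries had 695, 674, 692 and 672 CPM. All 4 HR- luminal values lay above all 4 basal ones, and the fitted difference was -1.89 on the log2 scale (SE 0.08, edgeR adjusted p = 5.6e-09), so that basal cells held 0.27 of the HR- luminal level. HR+ luminal cells lay between the other classes, at 844, 1024, 1116 and 900.0 CPM in the same order. The difference of HR+ from HR- luminal cells was -1.43 (SE 0.08) and that of basal from HR+ luminal cells -0.45 (SE 0.08), both called.

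H2-D1 (ENSMUSG00000073411, chromosome 17, 35262730 to 35267499), the other classical heavy chain, followed the same order of classes. HR- luminal cells had 1629.9, 1705, 2045 and 1995 CPM, HR+ luminal cells 997, 1293, 1411 and 1192 CPM, and basal cells 800.3, 825, 836 and 817 CPM. No class overlapped another. The steps between classes were smaller than for H2-K1, at -0.77 (SE 0.07) for HR+ against HR- luminal and -1.30 (SE 0.07) for basal against HR- luminal cells on the log2 scale. Within HR- luminal cells, 1.22 to 1.27 UMIs of H2-K1 were counted per UMI of H2-D1, whereas this ratio was 0.818 to 0.869 in basal and 0.755 to 0.846 in HR+ luminal cells. The ratios of HR- luminal cells lay above those of both other classes in each library.

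H2-Q7 (ENSMUSG00000060550, chromosome 17, 35439155 to 35443773) encodes a non-classical heavy chain of the Qa group. It had 256, 247, 363 and 347 CPM in HR- luminal cells, 56.6, 46.2, 71.9 and 53.8 in HR+ luminal cells, and 45.3, 41.2, 62.9 and 59.1 in basal cells. HR- luminal cells stood apart from both other classes, which overlapped. Among the members its differences were the largest in both contrasts with HR- luminal cells, 6.39-fold lower in basal cells (log2 -2.68, SE 0.08, edgeR adjusted p = 5.5e-10) and 5.95-fold lower in HR+ luminal cells (log2 -2.57, SE 0.08, edgeR adjusted p = 6.3e-10). Basal and HR+ luminal cells differed by -0.10 (SE 0.08), which was not called. H2-Q7 has near-identical neighbours such as H2-Q6, and reads that fit several of them could be lost or split by the counting, so the level of a single Q gene is uncertain.

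H2-Q4 (ENSMUSG00000035929, chromosome 17, 35379617 to 35385290), another heavy chain of the Q group, had 54.8, 46.9, 79.0 and 84.6 CPM in HR- luminal, 31.3, 25.7, 41.2 and 54.6 in HR+ luminal and 20.8, 19.0, 31.9 and 36.2 in basal cells. Within every library the order was HR- luminal, HR+ luminal, basal, although the ranges of neighbouring classes over libraries overlapped, with both Brca2mut/WT libraries the higher in each class. The 3 contrasts were called, at -1.45 (SE 0.06) for basal and -0.99 (SE 0.07) for HR+ against HR- luminal cells, and -0.46 (SE 0.07) for basal against HR+ luminal cells. H2-T23 (ENSMUSG00000067212, chromosome 17, 36029773 to 36032855) encodes the non-classical heavy chain that presents leader peptides of other class I chains to receptors of natural killer cells. HR- luminal cells had 279, 299.97, 331 and 342 CPM of it, HR+ luminal cells 109, 122, 158 and 109 CPM, and basal cells 126, 132, 159 and 179 CPM. The lower classes overlapped, and both were called against HR- luminal cells, at -1.21 (SE 0.10) for basal and -1.51 (SE 0.10) for HR+ luminal cells. Basal cells exceeded HR+ luminal cells by 0.30 (SE 0.10), under the 25% required, and was called when the wild-type HU library (0.36) or the Brca2mut/WT control library (0.40) was left out.

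B2m (ENSMUSG00000060802, chromosome 2, 122147686 to 122153083) encodes the light chain that class I heavy chains need to fold and reach the surface. It stood at 2152, 2244, 2653 and 2543 CPM in HR- luminal and at 1056, 1073, 996 and 1038 CPM in basal cells. These classes did not overlap and differed by -1.33 (SE 0.14, edgeR adjusted p = 7.3e-06), 2.51-fold lower in basal cells. In HR+ luminal cells the wild-type control held 1341 CPM and the other libraries 2635, 2223 and 2567 CPM, so that 1 library lay near the basal level and 3 at the HR- luminal level. Each library carried 4 antibody tags, and the tag with most HR+ cells was tag 2 in wild-type HU (77 cells). It was tag 4 in the wild-type control (56) and in the Brca2mut/WT control and HU libraries (84 and 58). Only 5 HR+ pools of 1 tag in 1 library held 27 cells or more. The part of the tag makeup in the HR+ levels was not tested. HR+ and HR- luminal cells differed by -0.33 (SE 0.14, edgeR adjusted p = 0.054), which was not called, and the difference was -0.47 and called without the wild-type HU library. The UMIs of H2-K1 per UMI of B2m were 0.930 to 0.992 in HR- luminal, 0.628 to 0.696 in basal and 0.351 to 0.629 in HR+ luminal cells, the last with its highest value in the wild-type control.

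**Figure D1:**
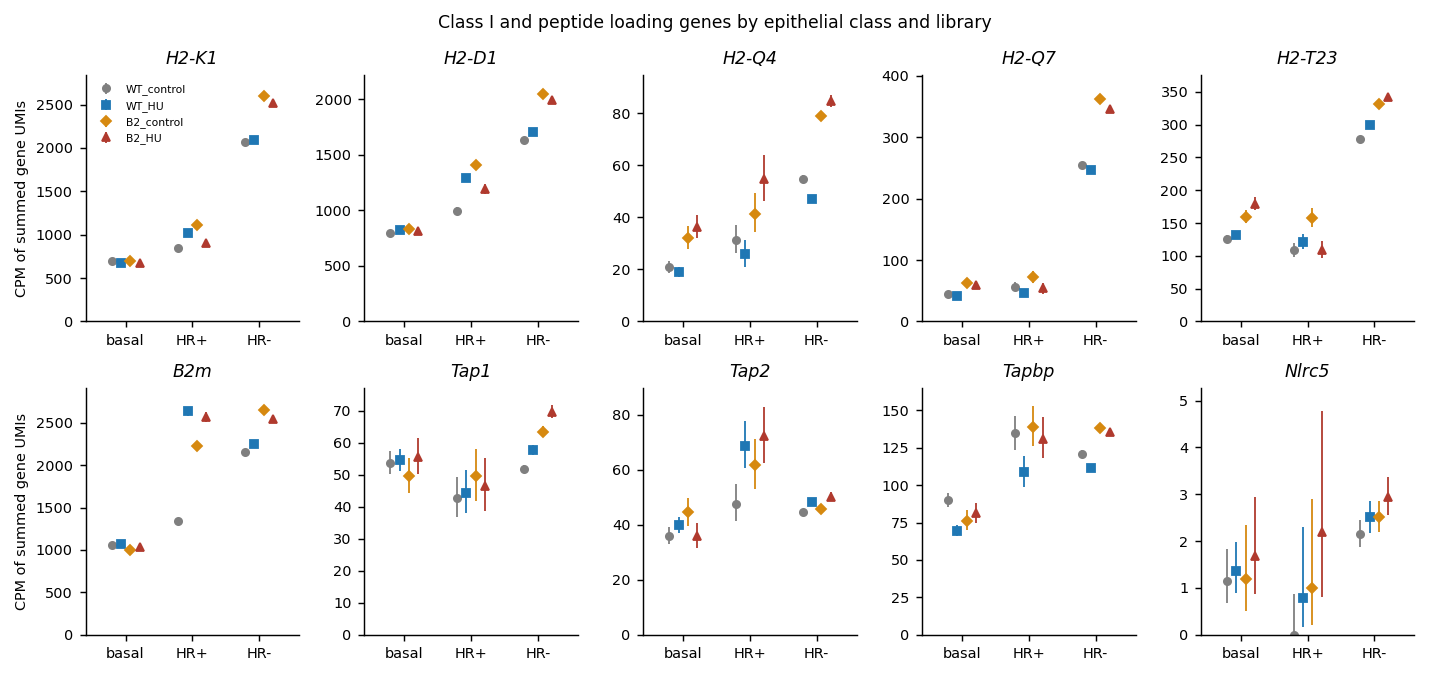
Levels of the 10 genes in basal, HR+ luminal and HR- luminal cells, as CPM of the summed gene UMIs on linear axes from 0. Each point is 1 library (WT, wild type; B2, Brca2mut/WT) and bars are exact Poisson 95% intervals, which cover counting error only. All 4 HR- luminal points of H2-K1, H2-D1, H2-Q7 and H2-T23 lie above every basal and HR+ luminal point, whereas the luminal classes overlap for Tap2 and Tapbp, and HR- luminal and basal cells for Tap1.

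The peptide loading genes differed less between classes. Tap1 (ENSMUSG00000037321, chromosome 17, 34187553 to 34197225) and Tap2 (ENSMUSG00000024339, chromosome 17, 34203527 to 34216321) encode the paired subunits of the peptide transporter. Tap1 had 51.8, 57.7, 63.4 and 69.7 CPM in HR- luminal, 42.7, 44.4, 49.5 and 46.5 in HR+ luminal and 53.7, 54.5, 49.5 and 55.6 in basal cells. Basal values overlapped those of HR- luminal cells, the difference of -0.31 (SE 0.07, edgeR adjusted p = 0.0033) was under the 25% required, and it was called without the wild-type control (-0.39) or wild-type HU library (-0.33). Against HR- luminal cells Tap1 was called lower in HR+ luminal cells, at -0.58 (SE 0.08). Tap2 had 44.6, 48.3, 45.6 and 50.2 CPM in HR- luminal, 47.6, 68.8, 61.7 and 72.1 in HR+ luminal and 35.9, 40.0, 44.6 and 35.9 in basal cells. It was called lower in basal cells, by -0.41 (SE 0.09) against HR- and -0.62 (SE 0.10) against HR+ luminal cells, and the difference of 0.21 (SE 0.10) between the luminal classes was not called.

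Tapbp (ENSMUSG00000024308, chromosome 17, 33915899 to 33929292) encodes tapasin, which holds empty class I molecules at the transporter. HR- luminal cells had 121, 111, 138 and 135 CPM and HR+ luminal cells 135, 109, 139 and 131 CPM. These overlapped and differed by -0.16 (SE 0.07), which was not called. All 4 basal values, 89.98, 69.4, 76.1 and 81.1 CPM, were lower, and basal cells were called lower against both, by -0.81 (SE 0.07) against HR- and -0.65 (SE 0.07) against HR+ luminal cells. Nlrc5 (ENSMUSG00000074151, chromosome 8, 94434356 to 94527272) encodes the activator that assembles on class I promoters. It was sparse, with 2.15, 2.504, 2.51 and 2.94 CPM from 209 to 223 UMIs per library in HR- luminal cells. Basal cells had 1.15, 1.36, 1.19 and 1.68 CPM, from 8 to 26 UMIs. HR+ luminal cells had 0, 3, 3 and 6 UMIs, and the count of 0 allows up to 3 UMIs (0.874 CPM) in that library. Both classes were called lower than HR- luminal cells, basal at -1.03 (SE 0.28) and HR+ luminal at -1.69 (SE 0.43).

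In the contrast of HR+ with HR- luminal cells 7 of 10 members were called lower and 0 higher, beside 29.5% of all genes lower and 27.7% higher. Those not called were B2m, Tap2 and Tapbp, and the members' median was -0.88 against -0.05 over all genes. Between basal and HR+ luminal cells 6 members were called lower in basal cells (H2-K1, H2-D1, H2-Q4, B2m, Tap2 and Tapbp) and 0 higher, beside 22.9% lower and 23.9% higher of all genes. With library totals in place of TMM factors, the median of all genes shifted by 0.14 in basal and 0.18 in HR+ against HR- luminal cells, and the share of higher calls among all calls went from 50.2% to 60.9% and from 48.4% to 61.0%. The counts of members called lower with library totals were 8 and 7. Tap2 in basal cells lost its call there, and no direction in these contrasts turned except Tapbp in HR+ luminal cells, which was at 0.02.

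**Figure D2:**
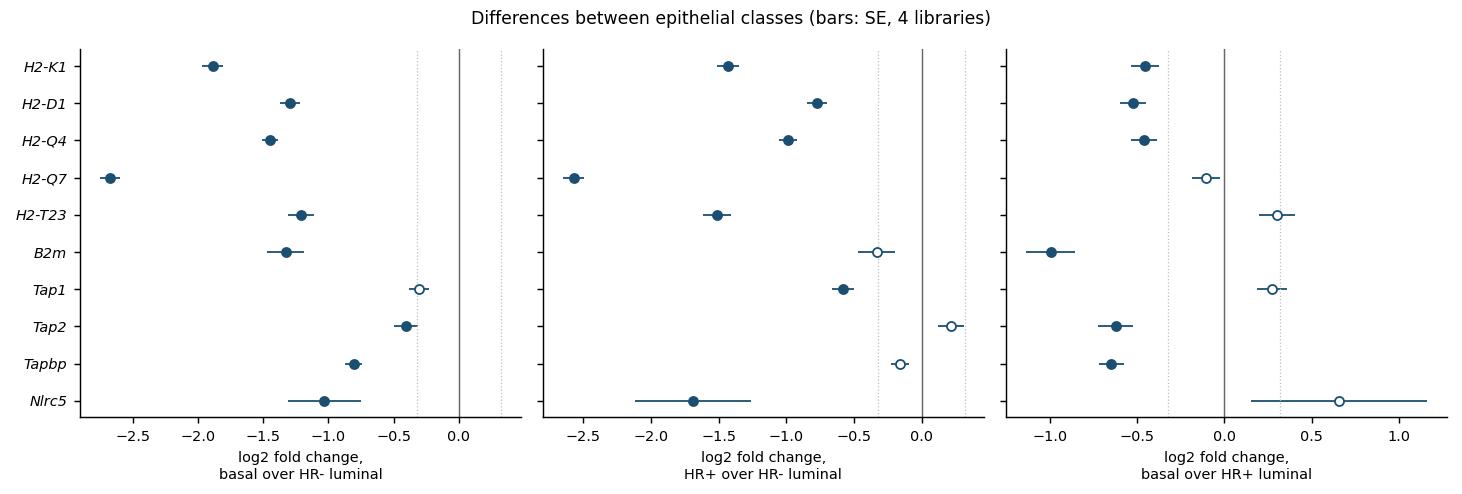
Fitted log2 fold changes of the 10 genes between epithelial classes, with SE bars over 4 libraries. Filled points are called (adjusted p below 0.05 and at least 25%, the dotted lines) and open points are not. H2-Q7 shows the largest differences from HR- luminal cells, at -2.68 in basal and -2.57 in HR+ luminal cells, while the right panel stays within 1 log2 unit of 0.

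A list of 31 other genes of the pathway moved less uniformly. Of the 30 tested, 16 were called lower and 2 higher in basal than in HR- luminal cells, and 16 lower and 3 higher in HR+ than in HR- luminal cells. Other heavy chains were called lower in basal cells for 5 of 6 tested, among them H2-Q6 at -3.01 (SE 0.13) and H2-T22 at -1.60 (SE 0.06). All 4 class I-like genes were called lower there, with Cd1d1, which presents lipids, at -2.08 (SE 0.09). Of the immunoproteasome and activator genes, whose products cut peptides for class I molecules, 2 of 5 were called lower, the catalytic subunits Psmb8 at -1.24 (SE 0.07) and Psmb9 at -1.21 (SE 0.06). The interferon receptor chains did not share a direction. Ifngr1 was higher, by 0.64 (SE 0.11) in basal and 0.75 (SE 0.12) in HR+ luminal cells, whereas Ifnar2 was lower in both (-0.85, SE 0.11, and -1.04, SE 0.12) and Ifngr2 lower in HR+ luminal cells (-0.88, SE 0.12). Irf1, an interferon regulatory factor, was higher by 1.04 (SE 0.15) in HR+ luminal cells. Between basal and HR+ luminal cells, 8 of the 30 were lower and 6 higher in basal cells.

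The share of cells with a transcript was read after thinning each cell to 5000 UMIs, which left out 122 to 288 HR- luminal cells per library. B2m was seen in 98.9 to 99.3% of HR- luminal cells and H2-K1 in 98.1 to 99.3%. In basal cells these shares were 96.0 to 99.0% and 91.0 to 93.4%, so nearly every cell of both classes had a UMI of each. H2-Q7 was seen in 55.3 to 60.5% of HR- luminal but 17.7 to 25% of basal cells, and Tapbp in 42.0 to 47.8% and 30.6 to 34.2%. Nlrc5 was seen in 0.900 to 1.76% of HR- luminal cells and 0.471 to 1.39% of basal cells, which overlap. Without thinning the HR- luminal shares were 99.5 to 99.9% for B2m, 82.2 to 84.5% for H2-Q7 and 4.97 to 6.91% for Nlrc5. No class of these cells should lack class I transcripts, so free RNA in the droplets could not be read from the members themselves. The luminal gene Csn3, at 18297 to 21471 CPM in HR- luminal cells, stood at 1205 to 1790 CPM in basal cells, and the part of such luminal transcripts in the basal levels and shares of the members was not tested.

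The set was next read along interferon-response genes within HR- luminal cells. In each library and antibody tag, cells with a single tag were ranked by the summed CPM of 10 interferon-induced genes, none of them a member (Ifit1, Ifit3, Ifit3b, Rsad2, Isg15, Irf7, Oasl2, Usp18, Ifi44 and Bst2), and the cells were cut into 3 equal ranges, of which the top was compared with the bottom. The ranges are ranges of a score and not cell types. All 10 members were called higher in the top range, beside 9.75% of the 14266 genes tested (14.5% were lower), with a median of 0.72 for the members against -0.01 over all genes. With library totals the median of all genes shifted by -0.12 and the share of higher calls went from 40.3% to 20.3%, while 10 members were again called higher.

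Nlrc5 showed the largest difference of the set, 2.37-fold (SE 0.13 on the log2 scale), with 2.90, 3.74, 3.46 and 4.07 CPM in the top and 1.31, 1.82, 1.47 and 1.92 CPM in the bottom ranges. Tap1 followed with a log2 difference of 0.89 (SE 0.04), from 39.3, 45.7, 49.6 and 49.98 to 64.4, 75.4, 82.9 and 93.3 CPM. H2-K1 differed by 0.79 (SE 0.03) and stood at 1607, 1629, 2085 and 1841 CPM in the bottom and 2499.9, 2550.3, 3145 and 3210.3 CPM in the top ranges. No value of a top range overlapped a bottom range for these 3 genes. Across libraries H2-Q4 did overlap, with 56.0 to 108 CPM in the top and 38.7 to 71.4 CPM in the bottom ranges. So did H2-Q7, with 277 to 424 CPM in the top and 209 to 333 CPM in the bottom ranges. B2m (0.72), Tapbp (0.73), Tap2 (0.74), H2-D1 (0.67), H2-Q4 (0.66), H2-Q7 (0.55) and H2-T23 (0.55) had SEs of 0.03 to 0.05. H2-Q7, which differed most between classes, was among the members with the smaller differences between ranges. The top range was higher in 16 of 16 pools of 1 tag in 1 library for 9 members and in 15 of 16 for Nlrc5. Neither the overlap of ranges nor the count of pools was read over all genes. Top ranges were also deeper, with a median of 26253 to 29915 against 22846 to 26326 UMIs per cell, and the part of depth was not tested.

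Other genes of the pathway were called higher in the top range for 13 of 31 and lower for 0. They comprised all 5 immunoproteasome and activator genes, with Psmb8 at 0.77 (SE 0.03) and Psmb9 at 0.77 (SE 0.04), and 4 of 7 other heavy chains, with H2-T22 at 0.90 (SE 0.04). Cd1d1 showed 0.85 (SE 0.04). None of the 4 interferon receptor chains was called, although all 4 passed an adjusted p of 0.05 at a difference under 25% by edgeR.

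In cycling cells 2 of 10 members were called higher and 2 lower, beside 18.6% and 20.4% of all genes, counts close to the background. HR- luminal cells with at least 500 CPM of 7 mitotic genes together (176 to 248 cells per library) were set against the rest. H2-Q7 was called higher in cycling cells, by 0.84 (SE 0.05), with 515, 425, 619 and 672 CPM against 241, 237, 345 and 329 CPM. H2-Q4 was called higher by 0.43 (SE 0.06), with 86.8, 65.0, 109 and 113 against 53.0, 45.9, 76.95 and 83.1 CPM. H2-T23 was called lower by -0.44 (SE 0.05), with 238, 239, 274 and 257 against 281, 303, 335 and 346 CPM. Each of these 3 genes kept its direction in 4 of 4 libraries. Tapbp was called lower by -0.36 (SE 0.06), with 116, 83.8, 114 and 117 against 121, 113, 139.7 and 136 CPM, and without the wild-type HU library, where the gap was widest, it was -0.29 and not called.

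**Figure D3:**
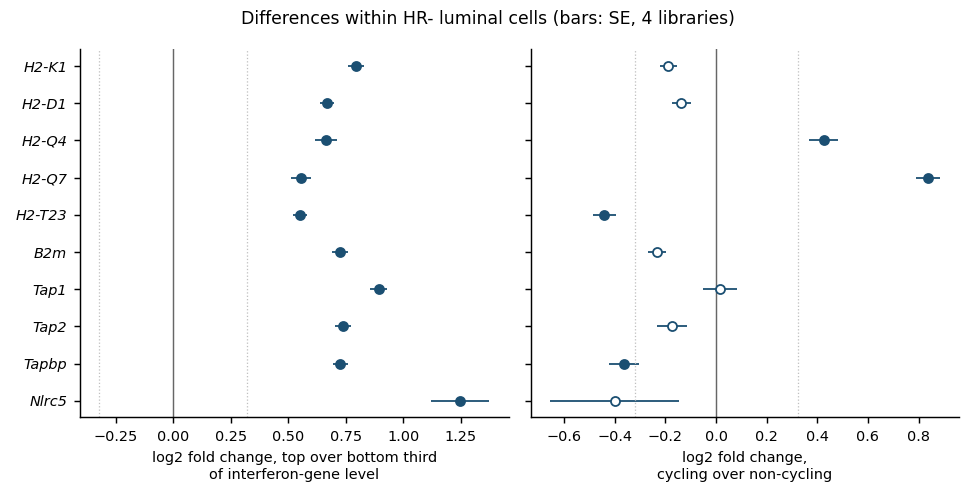
Fitted log2 fold changes of the 10 genes within HR- luminal cells, with SE bars over 4 libraries. The left panel sets the top against the bottom range by interferon-response genes and the right panel cycling against other cells, with filled points called and dotted lines at 25%. All 10 genes are higher on the left, with the smallest log2 value at 0.55 (H2-T23) and the largest for Nlrc5, whose linear fold is 2.37. The right panel runs from a log2 value of -0.44 (H2-T23) to 0.84 (H2-Q7).

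The other 6 members were not called with the cell cycle. B2m (-0.23, SE 0.04), H2-K1 (-0.19, SE 0.03) and H2-D1 (-0.14, SE 0.04) passed the adjusted p at a difference under 25%, and Tap1 stood at 0.02 (SE 0.07). Over all 14931 genes 18.6% were called higher and 20.4% lower, so that 2 higher and 2 lower of 10 members are close to the background. With library totals the median of all genes shifted by 0.12, the share of higher calls went from 47.7% to 62.1% and Tapbp was no longer called. Cycling cells were more frequent in some tags, with 7.25 to 13.9% of tag 2 cells, 7.08 to 9.07% of tag 4 cells and 2.85 to 5.08% of cells with tags 1 and 3. Within the 15 pools that held at least 20 cycling cells, H2-Q7 was higher in cycling cells in 15, H2-Q4 in 14, Tapbp in 2 and H2-T23 in 1. H2-Q6, next to H2-Q7, was called higher at 0.77 (SE 0.06) and Psmb9 at 0.55 (SE 0.05), while Fcgrt (-1.27, SE 0.13) and Cd1d1 (-0.69, SE 0.09) were called lower. In all, 4 of the 31 other pathway genes were called higher and 8 lower.

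The libraries were then compared within HR- luminal cells. Since each condition is 1 library, ratios are given with exact intervals that cover counting error only, and a ratio past the 25% threshold is a description. Between HU and untreated cultures of the same genotype, 0 of the 9 members with at least 10 CPM were past 25% in wild-type or in Brca2mut/WT libraries, beside 8.22% and 6.11% of all genes in either direction, a count near the background. The members' log2 ratios of HU over control ran from -0.23 (H2-Q4) to 0.16 (Tap1) in wild-type and from -0.07 (H2-Q7) to 0.14 (Tap1) in Brca2mut/WT libraries. For H2-K1 they were 0.01 (0.00 to 0.02) and -0.04 (-0.05 to -0.04). The count depended on the tags and filter. With the mean of the tag pools H2-Q4 stood at -0.55 and H2-Q7 at -0.52 in wild-type libraries, and 2 members were lower by over 25%, as with a wider cell filter. In Brca2mut/WT libraries H2-K1 was -0.45 without tag 2 of the HU library, where 5 members were lower by over 25%, and 0.37 without tag 2 of the control, where 6 were higher.

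Between genotypes, with all cells, in untreated cultures 4 of 9 members were higher by over 25% in the Brca2mut/WT library, beside 3.39% of all genes. They were H2-K1 (log2 0.33, 0.32 to 0.34), H2-D1 (0.33, 0.32 to 0.34), H2-Q4 (0.53, 0.48 to 0.58) and H2-Q7 (0.50, 0.48 to 0.53), and B2m stood at 0.30 (0.29 to 0.31). In HU cultures 2 of 9 were past it, H2-Q4 (0.85, 0.79 to 0.91) and H2-Q7 (0.49, 0.46 to 0.52), beside 2.74% of all genes. The members' medians were 0.30 and 0.25 against 0.06 and 0.05 over all genes. Both counts depended on the cells used. With a wider cell filter they were 6 and 7 of 9, with the mean of the tag pools 1 and 7, and without 1 tag pool they ran from 0 to 8 and from 1 to 7. Without the cells of tag 2 in both libraries, 0 of 9 members were past 25% in untreated cultures and H2-K1 stood at -0.04, H2-D1 at -0.03, H2-Q7 at -0.10 and B2m at -0.08. In HU cultures H2-Q4 alone remained past it at 0.34, and H2-Q7 turned to -0.26. Leaving out tag 2 was chosen after seeing the data, and the same tag number need not be the same sample in both libraries.

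**Figure D4:**
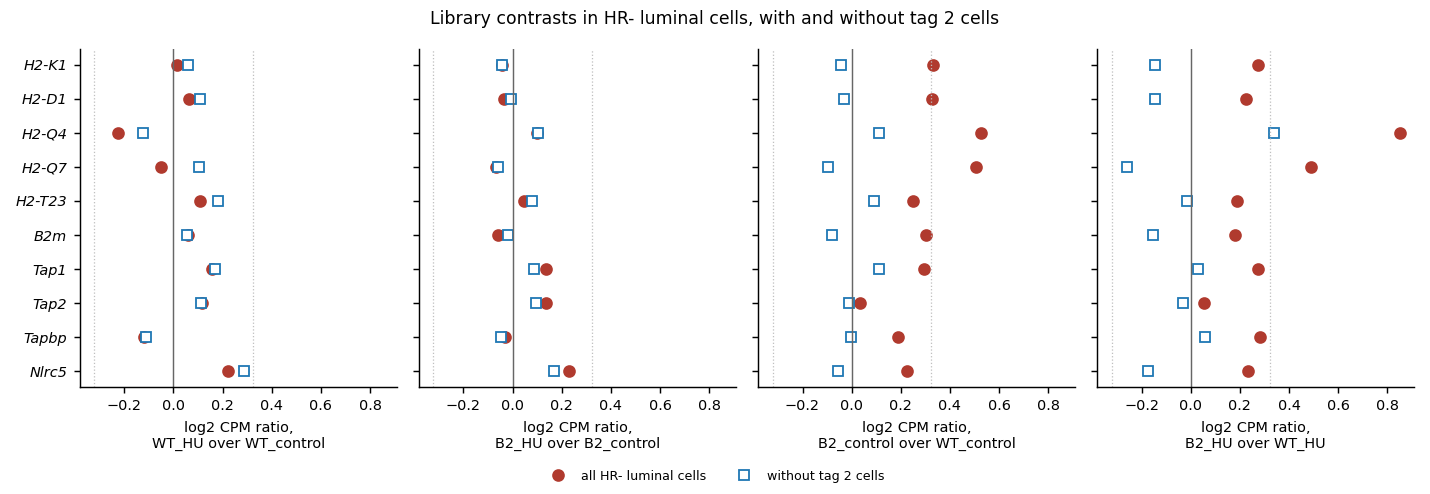
Log2 CPM ratios of the 10 genes between libraries in HR- luminal cells (WT, wild type; B2, Brca2mut/WT), with all cells (circles) and without tag 2 cells in both libraries (squares), and dotted lines at 25%. Both left panels (HU over control) stay within the lines. In the right panels (Brca2mut/WT over wild type) H2-Q7 is at 0.50 and 0.49 with all cells and at -0.10 and -0.26 without tag 2. Leaving out tag 2 was chosen after seeing the data.

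In basal cells the makeup by tag differed between genotypes, tag 2 holding 49 and 336 cells in the wild-type control and HU libraries but 1 and 11 in the Brca2mut/WT libraries. H2-Q4 was higher in the Brca2mut/WT library by 0.62 (0.36 to 0.87) in untreated and 0.93 (0.70 to 1.17) in HU cultures. H2-Q7 was higher by 0.47 (0.29 to 0.65) and 0.52 (0.35 to 0.69), and H2-T23 by 0.34 (0.24 to 0.45) and 0.44 (0.34 to 0.54). These 3 of 9 members were higher by over 25% in both, beside 8.25% and 13.2% of all genes, while H2-K1 stood at -0.01 (-0.06 to 0.04) and -0.01 (-0.05 to 0.04). The part of the strain background of the mice in these ratios was not tested. The tag pools overlapped between genotypes for all 3, with H2-Q4 at 10.96 to 34.9 CPM in 8 wild-type pools and 28.0 to 38.4 CPM in 6 Brca2mut/WT pools, and H2-Q7 at 32.6 to 77.9 and 47.6 to 77.2 CPM. The tags have no key, so pools of the same tag number in different libraries need not be matching samples. By tag number the H2-Q7 ratio of the HU libraries was not seen throughout. Wild-type HU held 53.0 and 65.8 CPM in tags 1 and 3, against 54.9 and 53.9 CPM in Brca2mut/WT HU, and 34.2 against 47.6 CPM in tag 4. Tag 2 of wild-type HU, at 38.3 CPM, had no Brca2mut/WT pool of enough cells beside it. In tags 1, 3 and 4, H2-T23 held 180, 188 and 102 CPM in the wild-type control and 182, 187 and 132 CPM in the Brca2mut/WT one. The HU libraries held 170, 205 and 118 CPM of it in wild type and 194, 210 and 124 CPM in Brca2mut/WT. H2-Q4 was lower in wild type in each of these tags, at 24.5, 34.9 and 18.2 against 32.0, 35.9 and 28.0 CPM untreated. With HU it held 10.96, 29.4 and 15.9 against 38.4, 34.4 and 32.5 CPM. The part of the tag makeup in the basal ratios was not tested. In HR+ luminal cells, 7 of 9 members were higher by over 25% in the untreated Brca2mut/WT library, and 1 of 9 in the HU one. The members' medians were 0.40 and 0.07, against 0.003 and 0.04 over all genes. The share of all genes past 25% was not counted in HR+ cells, whose makeup by tag also differed between libraries.

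Each library carried 4 antibody tags with no key in the sources used here, so the 16 pools of HR- luminal cells with a single tag were described without labels and without a test. A pool could not be assigned to a mouse, a replicate or a passage. In the untreated Brca2mut/WT library B2m stood at 2071, 5198, 1610.1 and 2539 CPM for tags 1 to 4, and in the HU library at 2155, 6083, 1677 and 2305 CPM. The wild-type control had 2053, 3335, 1918 and 2816 CPM and wild-type HU 2115, 2574, 2150.0 and 2604 CPM. Tag 2 of both Brca2mut/WT libraries stood above the other 14 pools, which reached 3335 CPM at most.

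For H2-K1 the same pools gave 2138, 5016, 1658 and 2346 CPM in the untreated and 2092, 6205, 1734 and 1969 CPM in the HU Brca2mut/WT library, 1940.0, 2936, 1959 and 2645 CPM in the wild-type control and 2092, 2036, 2151 and 2190.1 CPM in wild-type HU. H2-Q7 reached 896 and 1147 CPM in tag 2 of the Brca2mut/WT libraries and 613 CPM in tag 2 of the wild-type control, beside 176 to 339.7 CPM in the other 13 pools. All 10 members were highest in tag 2 of Brca2mut/WT HU (409 cells), as were 15 of the 31 other pathway genes. The share of all genes that were highest in this pool was not counted. For 9 of the members tag 2 of the Brca2mut/WT control (697 cells) came next, and Tap2 was the exception with 54.3 CPM in tag 4 of that library. Next in order for the 9 members other than Tap2 was tag 2 of the wild-type control (200 cells), while tag 2 of wild-type HU (593 cells) had the lowest H2-Q4 of all pools, 42.6 CPM.

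Relative to the other 3 tags together, tag 2 of Brca2mut/WT HU held 5.41 times the CPM of H2-Q7, 3.68 of H2-Q4, 3.22 of H2-K1, 3.20 of Nlrc5, 3.11 of B2m and 2.97 of H2-D1. The loading genes had smaller ratios, with 2.40 for Tap1, 2.21 for Tapbp and 1.39 for Tap2, and H2-T23 stood at 1.69. Tag 2 of the Brca2mut/WT control gave the same leading gene, with 4.05 for H2-Q7, 2.84 for H2-Q4, 2.63 for B2m, 2.53 for H2-K1 and 1.12 for Tap2. Counting members at least 25% above each of the other 3 pools of their library, tag 2 held 3 of 9 in the wild-type control (H2-Q4, H2-Q7 and Tap1), 0 of 9 in wild-type HU, 8 of 9 in the Brca2mut/WT control and 9 of 9 in Brca2mut/WT HU. The shares over all genes were 6.77%, 0.859%, 21% and 18.3% in the same order. Of the other pathway genes, 9 of 25, 0 of 25, 15 of 28 and 16 of 29 did so, H2-Q6 reaching 222 and 256 CPM in the Brca2mut/WT pools. The larger sets of the Brca2mut/WT libraries include genes that reached 10 CPM in tag 2 alone. Their place in these counts therefore followed in part from that floor, which also applied to the shares over all genes.

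**Figure D5:**
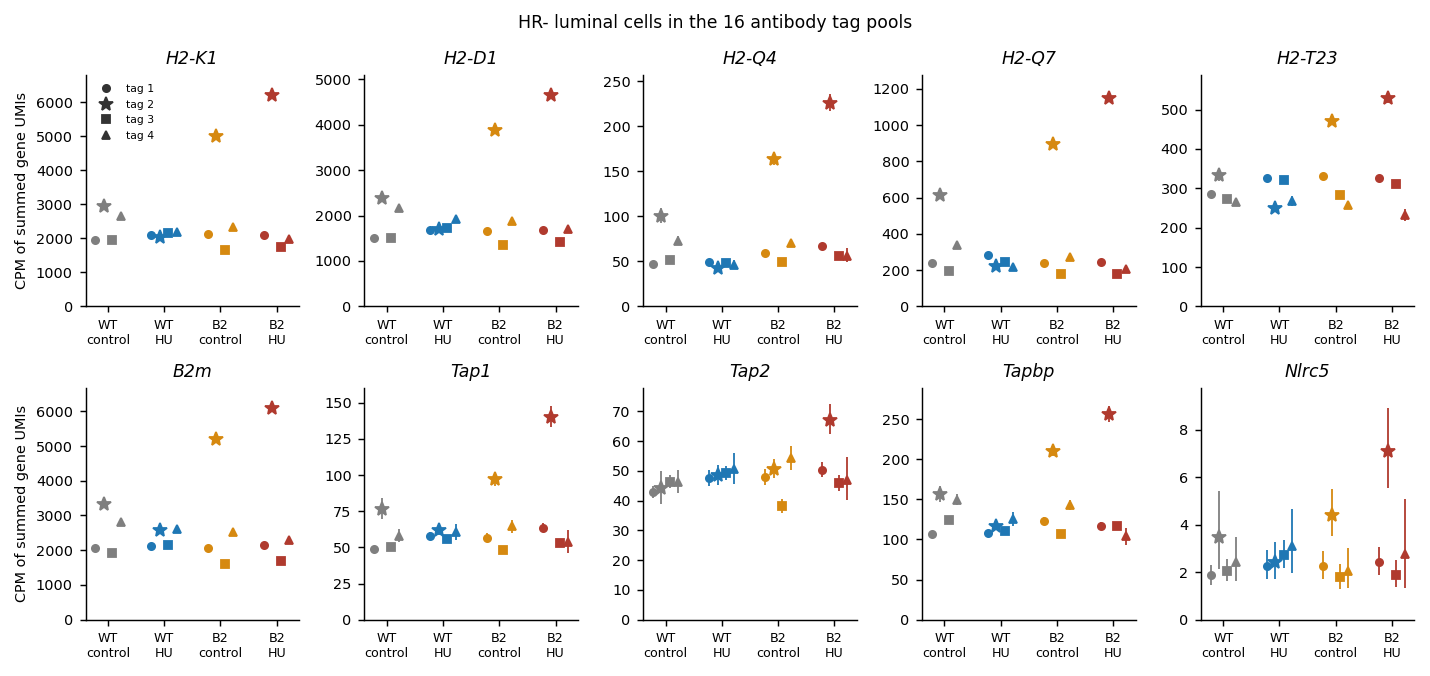
Levels of the 10 genes in the 16 antibody tag pools of HR- luminal cells, as CPM of summed gene UMIs with exact Poisson 95% intervals. Colours are libraries (WT, wild type; B2, Brca2mut/WT) and symbols are tags, whose meaning is not known. The stars of both Brca2mut/WT libraries, tag 2, stand above the other pools for the 9 genes other than Tap2, at 5016 and 6205 CPM for H2-K1, whereas the star of wild-type HU lies among its neighbours.

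The level was spread over the cells of these pools. In tag 2 of Brca2mut/WT HU the 10th percentile, median and 90th percentile of B2m per cell were 2670, 5611 and 8444 CPM, and in tag 2 of the Brca2mut/WT control 2869, 4991 and 7854 CPM. In tag 1 of the same libraries they were 807, 2007 and 3832 CPM and 786, 1897 and 3627 CPM. The median cell of tag 2 thus exceeded the 90th percentile of tag 1 in both libraries, while the distributions overlapped. The median depth per cell was 28551 UMIs in tag 2 and 28732 in tag 1 of Brca2mut/WT HU, and 26642 and 25076 in the untreated library. The interferon-response genes Ifit3 and Irf7 were also highest in tag 2 of the Brca2mut/WT control and HU libraries. Ifit3 reached 682 and 921 CPM there, against 180.4 to 368 CPM in the other 14 pools. Irf7 reached 884 and 1149.6 CPM, against 537.7 to 784 CPM. Next for both was tag 4 of the Brca2mut/WT control, and not tag 2 of the wild-type control as for the members other than Tap2. The milk protein gene Lalba was lowest in tag 2 of the Brca2mut/WT control and HU libraries, at 86.2 and 59.0 CPM, and Tspan8, a tetraspanin gene, highest at 362 and 382 CPM. Tag 2 of the wild-type control came next for Tspan8 at 299 CPM, and the other 14 pools with it ran from 48.7 to 299 CPM. The part of cell composition, culture or passage in these pools was not tested.

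Across the 16 pools the members' levels on the log2(CPM + 1) scale tracked B2m to unequal degrees, given here as a description over pools that share libraries. Pearson's r with B2m was 0.99 for H2-D1, 0.97 for H2-K1 and 0.70 for both H2-T23 and Tap2. Without the 2 tag 2 pools of the Brca2mut/WT libraries it was 0.96, 0.91, -0.15 and 0.40 over 14 pools. For H2-T23 the relation to B2m rested on those pools.

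The genes whose pattern over the 16 pools was most like the mean of the members were taken from 5269 genes outside the set with at least 20 CPM in the median pool. In order they were H2-T22 (r = 0.98), Fbxw4, Bst2, Ifi47, Med28, Nt5c3, Phf11d, H2-Q6, Ifit3 and Gsk3a (r = 0.95), of which Bst2 and Ifit3 were also used to rank cells above. Those most like B2m were Nt5c3 (r = 0.98), Polr2e, Pacsin2, Usp18, H2-Q6, Dcaf4, Chrm3, Spint2, Stat2 and Tmem184a (r = 0.96). H2-Q6 and Nt5c3 were in both lists. Without tag 2 of both Brca2mut/WT libraries, r was lower, from 0.78 (Ifit3) to 0.92 (Fbxw4) for the genes most like the mean. For those most like B2m it then ran from 0.84 (Stat2) to 0.94 (Polr2e).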

How the data were processed

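Droplet libraries (Chromium v3) of 4 organoid conditions, 1 each, were analysed. Per the labels and methods, the authors made the deposited UMI counts with Cell Ranger 6.0.2 on mm10, whereas the matrix header names 6.1.1, so the reference was not settled. No values had been normalised. The study's own cell filter was applied (at least 1000 and at most 6000 detected genes, mitochondrial share under 5%), and no doublet caller was run. Cells had a single tag with at least 100 tag UMIs, 75% of them on 1 tag. Classes, interferon ranges and cycling cells were compared on summed counts with edgeR 4.0.16 (R 4.3.3; TMM, quasi-likelihood test, library block, Benjamini-Hochberg adjustment over all genes, adjusted p of 0.05 and 25% difference). Each class comes from the same 4 libraries, so their p-values measure the spread between these libraries, whose cells may share cultures. Library ratios used genes with at least 10 CPM in either library. Intervals (95%, exact Poisson or exact conditional binomial) cover counting error only, since the replicates pooled in a library could not be told apart. DESeq2 1.42.0, other gates, filters, scalings, tag rules and left-out libraries were the alternatives. Those without tag 2 cells and without HR- luminal cells carrying basal markers were chosen after seeing the data. Other steps used Python 3.11.15 and scipy 1.17.1, and the edgeR fit was tested on simulated counts. Named genes were all 10 members, at most 12 of 31 other pathway genes, and the 10 genes most like the members. The values of 1 pathway gene are not reported here. Members and lists were chosen with earlier results of these data known.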

Additional observations from a re-analysis of the deposited data

Results flagged for a closer look

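In HR- luminal cells HU went with opposite signs in the wild-type and Brca2mut/WT libraries for 4 members, with 1 library per condition, and the difference was not tested. The log2 ratios of HU over control in wild-type and Brca2mut/WT libraries were 0.01 and -0.04 for H2-K1. They were 0.06 and -0.04 for H2-D1. For H2-Q4 they were -0.23 and 0.10, and for B2m 0.06 and -0.06. These signs turned with the weighting of the tag pools. With the mean of the pools the ratios in wild-type and Brca2mut/WT libraries were -0.16 and 0.10 for H2-K1, -0.11 and 0.11 for H2-D1, and -0.10 and 0.10 for B2m, while H2-Q4 kept its signs at -0.55 and 0.24. Without 1 pool H2-K1 ran from -0.05 to 0.07 in wild-type and from -0.45 to 0.37 in Brca2mut/WT libraries, and H2-Q4 from -0.37 to -0.15 and from -0.38 to 0.59.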

How the results depend on the processing

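Depth limits Nlrc5 most, whose HR- luminal count was 209 to 223 UMIs per library, beside 0 to 6 UMIs in the HR+ gate. With 1 library per condition, no ratio between libraries has a replicate check. Over the alternatives the number of members called lower stayed at 8 to 10 for basal and 7 to 8 for HR+ against HR- luminal cells and 5 to 6 for basal against HR+ luminal cells. The interferon ranges called 10 throughout and cycling 3 to 4. Without the library as a block these counts were 9, 7, 5, 10 and 3, H2-Q4 losing its call in basal against HR+ luminal and in cycling cells. Directions turned for Tapbp in HR+ against HR- luminal cells with library totals (0.019), for Nlrc5 in basal against HR+ luminal cells with a wider cell filter (-0.28), and for Tap1 in cycling cells with no low-count filter (-0.026) or without tag 2 cells (-0.016), its values without 1 library running from -0.033 to 0.10. The cause was not tested.

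The counts of ratios past 25% between libraries in HR- luminal cells moved with the tags counted and with the cell filter. For untreated Brca2mut/WT over wild type, the 4 members past 25% became 0 at 1.5-fold, 2 with TMM scaling, 2 with stricter gates, 1 with the mean of the tag pools and 0 without tag 2. Without 1 pool they ran from 0 (without Brca2mut/WT tag 2) to 8 (without Brca2mut/WT tag 3), with 2 without wild-type tag 1 and 1 without wild-type tag 3. H2-K1 turned to -0.045 without tag 2 and ran from -0.081 to 0.55 without 1 pool, H2-D1 turned to -0.032 and ran from -0.071 to 0.53, and H2-Q7 turned to -0.10 and ran from -0.22 to 0.80. For Brca2mut/WT HU over wild-type HU the 2 members became 1 at 1.5-fold, 7 with a wider cell filter, 7 with the mean of the pools, 1 without tag 2, and 1 to 7 without 1 pool, 7 without Brca2mut/WT HU tag 1 or 3. H2-Q7 turned to -0.26 without tag 2 and ran from -0.23 to 0.84 without 1 pool. For wild-type HU over control, 0 became 2 with a wider filter and 2 with the mean of the pools, and 0 to 1 without 1 pool. For Brca2mut/WT HU over control, 0 became 0 to 6 without 1 pool, 5 lower without HU tag 2 and 6 higher without control tag 2. The number of members seen in at least 50% of HR- luminal cells went from 5 to 9 with no thinning.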
